A study of Homo sapiens with 8 samples.

Results

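The 51 genes described here encode ribosome biogenesis factors, the nucleolar proteins that process ribosomal RNA precursors and assemble them with ribosomal proteins. They were taken by gene symbol from the 18388 genes of a SLAM-Seq table, and each symbol matched 1 gene. SLAM-Seq marks RNA made during a short pulse of 4-thiouridine (4sU), because alkylated 4sU is read as a T-to-C conversion in the sequencing reads. The cells were U-2OS Tet-ON, a human osteosarcoma line that carries the tetracycline-regulated transactivator. They received 50 nM of a control siRNA (siControl) or of a pool of siRNAs against CGGBP1 (siCGGBP1), a protein that binds short CGG repeats at promoters, for 72 h and then 75 µM 4sU for 60 min. Each group had 3 libraries, and 1 further siControl library each was made with 0 µM and with 200 µM 4sU. The titles of both groups carry the word DMSO. The labels do not say that replicates came from separate cultures, and p-values measure the spread between these libraries, which may be technical.

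Ribosomes are made in the nucleolus, where RNA polymerase I transcribes a long precursor that holds the RNA of both ribosomal subunits. Small nucleolar ribonucleoproteins (snoRNPs) modify this precursor, the small subunit (SSU) processome cleaves and folds its first segment, and further sets of factors carry the pre-40S and pre-60S particles through the nucleus. The genes are transcribed by RNA polymerase II, are highly active in growing cells and include many textbook targets of the transcription factor MYC, which binds the E-box.

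The libraries held 10127519 to 14221516 reads in the 6 compared samples. CGGBP1 itself had 1245, 1089 and 892 normalised reads in siControl and 212, 117 and 362 in siCGGBP1 (log2 fold change -2.22, SE 0.39, adjusted p = 0.0138), so every siCGGBP1 library lay below every siControl library. Mesenchymal and bone markers, VIM among them, summed to 4832 to 5264 counts scaled to the library total (CPM) in siControl and 7205 to 8602 CPM in siCGGBP1 without overlap, and 2 of 6 tested were called higher (COL1A1, 1.31, adjusted p = 0.00353, and SPARC, 1.27, adjusted p = 0.00634), while ALPL stayed at or below 21 reads. Of the 6 tested, 5 had positive estimates and 1, CD44, a negative one without overlap (-0.87, adjusted p = 0.103). Whether these differences had a part in that of the biogenesis factors was not tested. Epithelial markers summed to 13.0 CPM at most with CDH1 at 0, blood markers to 1.08 CPM with CD3E and LYZ at 0, endothelial markers to 2.27 CPM with PECAM1 at 0, and neural markers to 71.0 CPM. The 2 libraries numbered 3 stood apart in labelling: the ratio of new to total RNA was 0 for 56.9% and 58.5% of the tested genes there, against 22.5% to 31.9% in the other 4 libraries. For new RNA, the counts, the median and the estimates of the factors described are also given without both.

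The promoters were read first, since CGGBP1 is known for binding CGG repeats. RefSeq windows on GRCh38.p14, from 250 bases before to 50 bases after each transcription start, were found for 42 of the 51 genes, 6 of them with 2 windows. No window was matched for TCOF1, NOLC1, NOP58, DCAF13, RRP12, BOP1, MAK16, RRP1B and RRS1. An uninterrupted run of 2 or more CGG or CCG units stood in 24 of the 42 genes (57.1%), and in 59.6% of the 7930 tested genes with a window. Runs of 3 or more units stood in 6 of the 42 (14.3% against 14.7%), namely NOC3L, NOP2, RCL1, UBTF, UTP18 and UTP4. Runs of 4 were found in UBTF and UTP18 (4.76% against 5.47%). By gene, CGG tracts were thus about as frequent as among all tested genes. By window they were more frequent than over all 35116 windows, expressed or not, with 2 or more units in 56.2% of 48 windows against 29.6%, 3 or more in 12.5% against 6.21% and 4 in 4.17% against 2.21%. The longest tract is shown in capitals for 5 of the 6 genes with 3 or more units, written 5′ to 3′ on the strand of the gene.

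UTP18, chr17:51260493-51260522, plus strand: ccggggcttCGGCGGCGGCGGcccgcgagg

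UBTF, chr17:44219735-44219764, minus strand: ctgaggctgCGGCGGCGGCGGggggtgtgc

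NOP2, chr12:6568399-6568428, minus strand: cccctactcgCCGCCGCCGgctccgctggc

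RCL1, chr9:4792964-4792993, plus strand: ggctgctggaggcagcccgagCCGCCGCCG

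NOC3L, chr10:94362964-94362993, minus strand: ccctcacttcCGGCGGCGGaggattgggag

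The tracts begin at position -44 from the start in UTP18 and NOC3L, -80 in UBTF, -127 in NOP2 and 42 in RCL1. Log2 fold changes in total RNA were positive for UTP18, UBTF, NOP2 and RCL1 and negative for NOC3L (-0.36) and for the gene not shown, UTP4 (-0.18). The palindromic E-box CACGTG, which was searched after the windows had been read, was more frequent than in both backgrounds. It occurred in 22 of the 42 genes (52.4%) and in 13.2% of the tested genes, or in 47.9% of 48 windows against 7.26% of all 35116 windows. Of the 25 matches, 21 (84.0%) began between 20 bases before and 40 bases after the start, against 19.0% of the 2821 matches in all windows. Stretches of 30 bases are shown for the genes with an E-box whose total RNA was lower at an unadjusted p under 0.05, and for NOP2 and UTP18, with positive log2 fold changes. Capitals mark the E-box.

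EBNA1BP2, chr1:43172241-43172270, minus strand: tggcgctggagcgattcggtggCACGTGga

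GNL3, chr3:52686026-52686055, plus strand: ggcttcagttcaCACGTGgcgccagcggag

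RRP9, chr3:51941892-51941921, minus strand: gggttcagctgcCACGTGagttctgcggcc

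UTP20, chr12:101280083-101280112, plus strand: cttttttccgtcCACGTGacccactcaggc

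WDR43, chr2:28894658-28894687, plus strand: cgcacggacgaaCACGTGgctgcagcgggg

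NOP2, chr12:6568242-6568271, minus strand: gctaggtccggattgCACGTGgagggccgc

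UTP18, chr17:51260538-51260567, plus strand: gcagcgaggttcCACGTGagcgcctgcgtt

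The E-box shown lay within the first transcribed bases in EBNA1BP2 (position 43 from the start), GNL3 (7), WDR43 (4), NOP2 (36) and UTP18 (5), and just upstream in RRP9 (-5) and UTP20 (-10). A further E-box, not shown, stood at -89 in UTP18 and at -237 in another window of EBNA1BP2. NOP56 and NCL had neither motif in this window. A match of letters does not show a bound site, and no match says only that these letters were not in the window.

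In total RNA the summed reads of the set were lower after CGGBP1 knockdown, but few of its genes were called singly. The 51 genes held 0.873%, 0.826% and 0.776% of all reads in siControl and 0.653%, 0.647% and 0.653% in siCGGBP1. The groups did not overlap, and the mean of 0.651% ± 0.00369 (SD, n = 3) was 21.1% below the siControl mean of 0.825% ± 0.0486 (SD, n = 3). The siControl libraries without 4sU and with 200 µM 4sU held 0.763% and 0.768%, also above all siCGGBP1 libraries. The most abundant pair of transcripts did not carry the difference, which was 19.0% without NCL, 24.5% without NPM1 and 22.7% without both. Without the 14 factors that were lower at an unadjusted p under 0.05 it was 10.5%, and the groups overlapped, at 0.456% in siCGGBP1 replicate 3 against 0.453% in siControl replicate 3. These 14 were picked as lower in the same libraries, so a smaller difference without them follows from the choice. Reads are shares of a library, so a change in RNA per cell that touched all transcripts alike would not be seen.

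**Figure D1:**
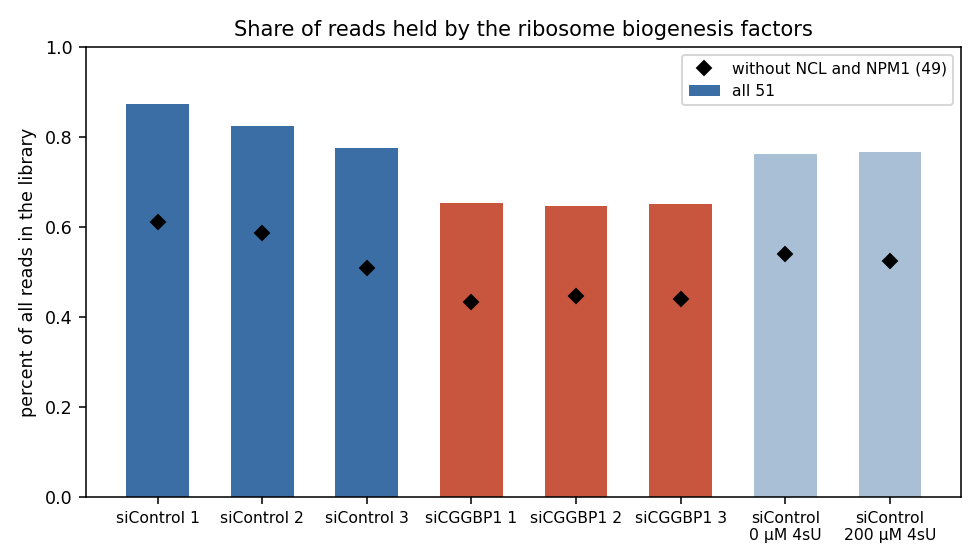
Bars give the percentage of all reads in each library that fell on the 51 ribosome biogenesis factors, with the axis starting at 0, and diamonds give the same without NCL and NPM1. The 3 siCGGBP1 libraries sit between 0.647% and 0.653%, below the 3 siControl libraries at 75 µM 4sU and the 2 siControl libraries at other doses.

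A minimum of 100 reads in 3 or more of the 6 libraries was met by 49 of the 51 genes, which entered the edgeR quasi-likelihood fit together with all 10138 genes that passed. Their log2 fold change (siCGGBP1 against siControl) was negative for 39 and positive for 10, where 49.9% of all tested genes were negative and 50.1% positive. The median was -0.31 against 0.0012 for all tested genes, and the middle 50% of the genes lay between -0.65 and -0.059 against -0.36 to 0.39. At a Benjamini-Hochberg adjusted p under 0.05, 1 factor was called lower (NOP56; background 1.21% of tested genes) and 0 higher (background 0.572%). With an absolute log2 fold change above 1 in addition, 0 were called (0.957% lower and 0.454% higher in the background). At an unadjusted p under 0.05 there were 14 lower (8.32% in the background) and 0 higher (8.11%). The 3 siCGGBP1 libraries lay wholly below the 3 siControl libraries for 19 factors (12.1% of tested genes) and wholly above them for 1, NOP2 (12.1%). The DESeq2 Wald test called 5 lower (NOLC1, NCL, NOP56, MAK16 and EBNA1BP2; 3.45% in the background) and 0 higher (2.55%). A fit with the replicate number as a block called 2 (NOP56, and NCL at an adjusted p of 0.0483; 1.63% lower and 0.868% higher in the background). At an unadjusted p under 0.05 the same fit had 20 lower (10.4% in the background) and 1 higher, NOP2 (9.48%). Without both libraries numbered 3 it was 2 again (NOP56 and EBNA1BP2; 2.28% lower and 1.73% higher in the background).

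**Figure D2:**
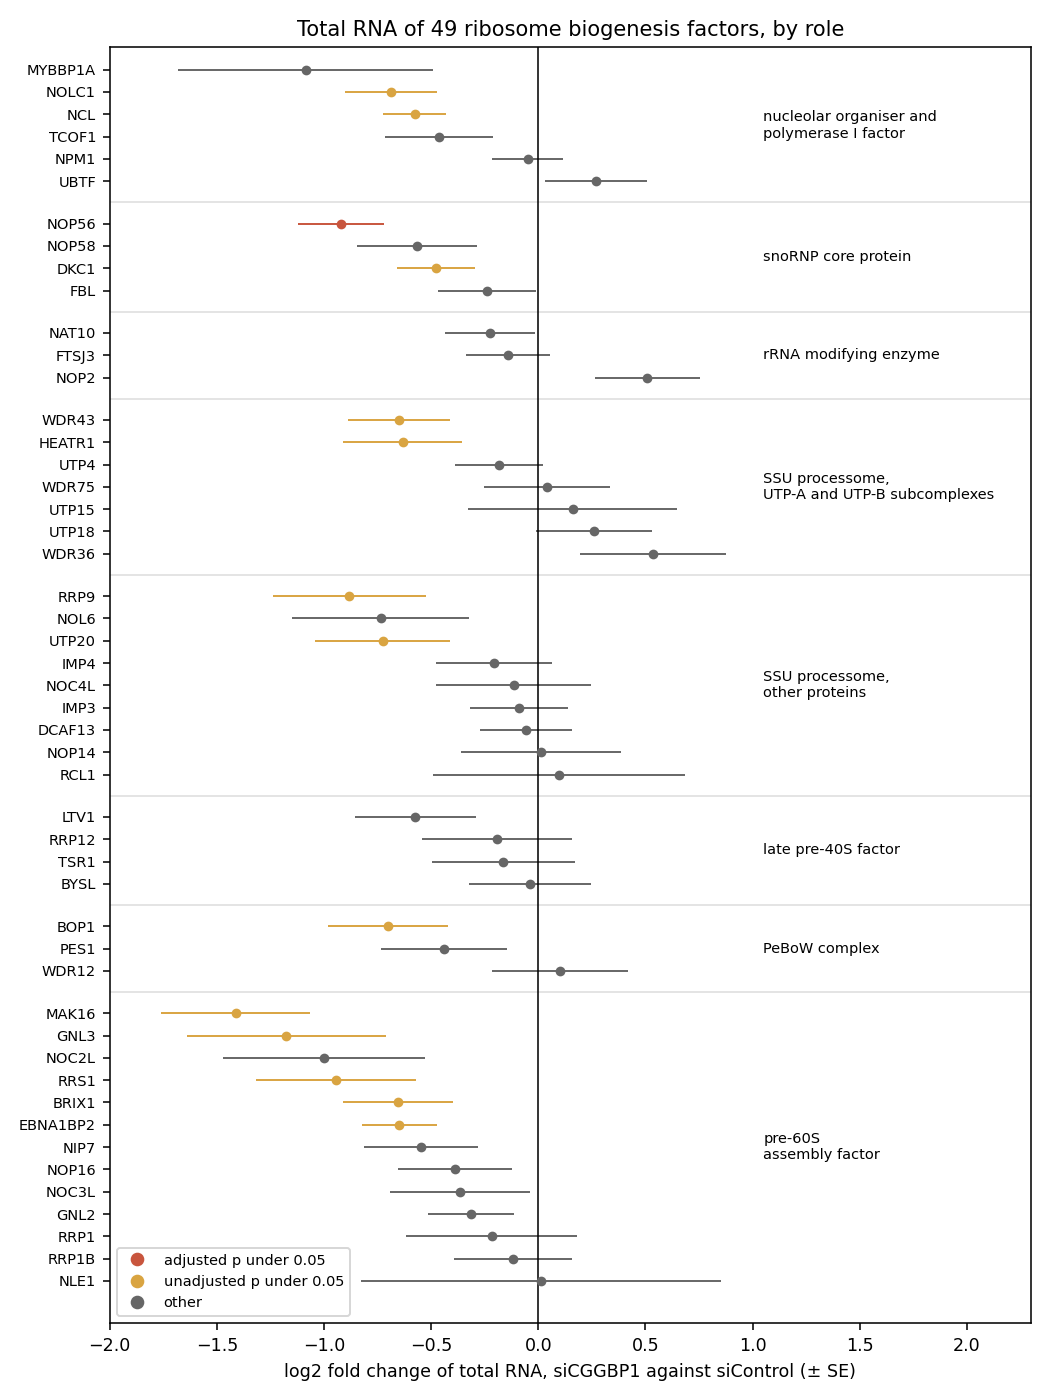
Points give the log2 fold change of total RNA in siCGGBP1 against siControl for the 49 tested factors, grouped by role, with bars of 1 SE, and colours mark the p-value class. Most points lie left of 0, with a median of -0.31, and the points right of 0 are spread over several roles, 4 of them in the UTP-A and UTP-B subcomplexes.

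Among the core proteins of the snoRNPs, which guide the chemical modification of ribosomal RNA, 4 of 4 had a negative log2 fold change, with a median of -0.52. NOP56, a scaffold of the box C/D snoRNP, had 4767, 4938 and 3773 normalised reads in siControl and 2818, 2267 and 2039 in siCGGBP1. All siCGGBP1 libraries were lower, by 47.1% in the fit (log2 fold change -0.92, SE 0.20, adjusted p = 0.0372). This call was lost on leaving out any one of the 6 libraries, with log2 fold changes from -1.06 to -0.82 and adjusted p from 0.0544 to 0.129. DKC1, the pseudouridine synthase of the box H/ACA snoRNP, went from 3748, 3898 and 3108 reads to 2501, 2690 and 2537 without overlap (-0.48, SE 0.18, adjusted p = 0.210). NOP58, the partner of NOP56, had 6780, 3876 and 3361 against 4250, 2672 and 2555, where the groups overlapped (-0.56, SE 0.28, adjusted p = 0.340). FBL, the methyltransferase of the same particle, had 4342, 7366 and 6065 against 3799, 6144 and 5122, with overlap and an adjusted p of 0.667.

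The organisers of the nucleolus and polymerase I factors differed among themselves, with 5 of 6 negative and a median of -0.52. NCL, the abundant nucleolar protein nucleolin, had 15926, 15185 and 15338 reads in siControl against 10623, 11423 and 9083 in siCGGBP1. Every siCGGBP1 library lay below every siControl library, 33.0% lower in the fit (-0.58, SE 0.15, adjusted p = 0.0750, and 0.0483 with the replicate block). NPM1, the other major nucleolar protein and a histone chaperone, had 14716, 12578 and 16653 against 15031, 11742 and 15719 (-0.049, SE 0.17, adjusted p = 0.924). The groups thus overlapped for NPM1, whose reads may include those of processed pseudogenes. NOLC1, which binds snoRNPs, had 2212, 1759 and 2279 against 1254, 1503 and 1121, without overlap (-0.69, SE 0.22, adjusted p = 0.130 in edgeR, called by DESeq2). MYBBP1A, a repressor of polymerase I transcription, did not overlap either (273, 333 and 239 against 154, 204 and 40.3) but varied widely (-1.08, SE 0.60, adjusted p = 0.395). UBTF, the factor that holds ribosomal DNA open for polymerase I, was the 1 of these with a positive estimate, at 1299, 1604 and 1003 against 1334, 1640 and 1734 (0.27, SE 0.24, adjusted p = 0.629).

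The pre-60S assembly factors, which build the large subunit, had the most negative median of any role, -0.55, with 12 of 13 tested genes negative, 5 of them at an unadjusted p under 0.05 and 7 without overlap. MAK16, a factor of the earliest pre-60S particles, had the most negative estimate of all 49, with 913, 731 and 1699 reads in siControl and 535, 343 and 378 in siCGGBP1. The groups were apart, and the siControl libraries also varied among themselves by more than the siCGGBP1 libraries (-1.41, SE 0.35, adjusted p = 0.0615). MAK16 overlaps TTI2 on the opposite strand of chromosome 8, whose estimate was positive (0.43, adjusted p = 0.769). EBNA1BP2, a factor needed to process the precursor of the large-subunit RNA, had 6056, 5316 and 4649 against 3413, 3325 and 3478, and the 3 siCGGBP1 values were close together (-0.65, SE 0.18, adjusted p = 0.0863). RRS1, which brings the 5S particle into the pre-60S, had 426, 518 and 1021 against 380, 375 and 268 (-0.94, SE 0.37, adjusted p = 0.227). GNL3, the nucleolar GTPase nucleostemin, had 411, 216 and 442 against 177, 190 and 105 (-1.18, SE 0.46, adjusted p = 0.225). BRIX1 had 1300, 986 and 1445 against 850, 617 and 903 (-0.65, SE 0.26, adjusted p = 0.224). These 3 were lower in every siCGGBP1 library than in any siControl library, and the neighbour of BRIX1 on the opposite strand, RAD1, had an estimate of -0.52. NIP7 and NOP16 were the other 2 without overlap, with estimates of -0.55 and -0.39. COG8, which overlaps NIP7 on the opposite strand, had an estimate of -0.64. NLE1, at 220, 293 and 59.2 against 291, 269 and 18.1, was the only positive one (0.013, SE 0.84) and its sign changed with the library left out.

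**Figure D3:**
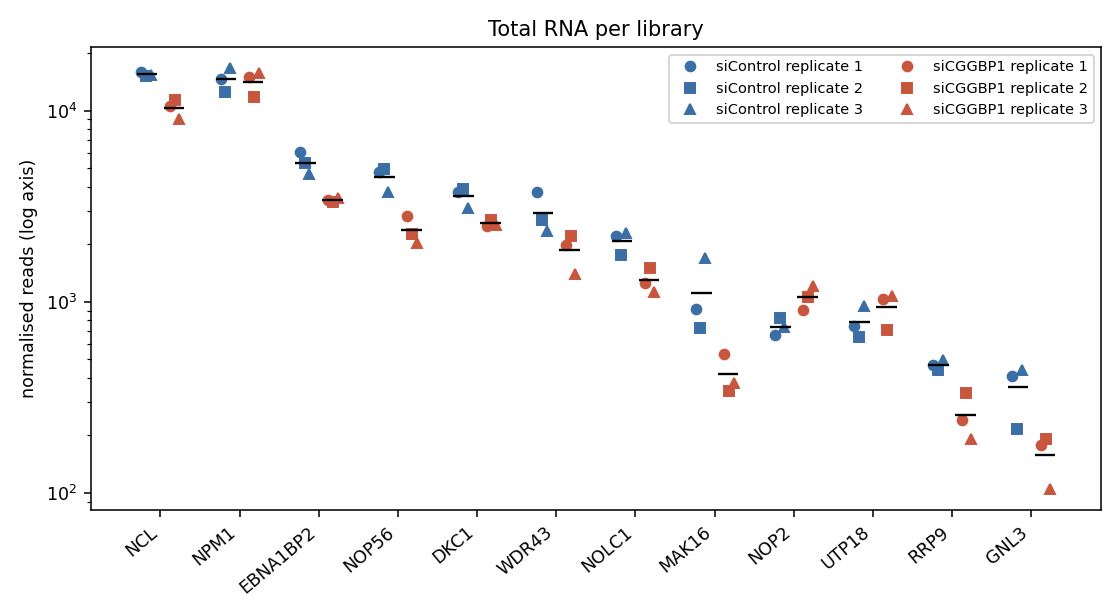
Each symbol is the normalised read number of 1 library on a log axis for 12 factors, blue for siControl and red for siCGGBP1, with black lines at the group means. NOP56, NCL, EBNA1BP2 and MAK16 show separate groups, NPM1 and UTP18 overlap, and NOP2 is separate in the opposite direction.

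In the PeBoW complex, a trimer that acts in 60S maturation, 2 of 3 subunits had negative estimates, and differences between subunits were not tested. BOP1 had 1002, 1262 and 962 against 737, 789 and 459 (-0.70, SE 0.28, adjusted p = 0.230), and PES1 had 509, 578 and 622 against 391, 475 and 393 (-0.44, SE 0.29, adjusted p = 0.501). Both were without overlap, whereas WDR12 overlapped at 577, 697 and 641 against 464, 593 and 998 (0.10, SE 0.32). For WDR12, siCGGBP1 replicates 1 and 2 lay below the same-numbered siControl libraries, and only replicate 3 lay above. SCX, which overlaps BOP1 on the opposite strand, had means of 24.1 reads in siControl and 146 in siCGGBP1 (2.58, adjusted p = 0.216).

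The SSU processome is described by module, and differences between modules were not tested. In the UTP-A and UTP-B subcomplexes, the first to bind the nascent precursor, 3 of 7 tested genes were negative and 4 positive, with a median of 0.042, the only role whose median was above 0. WDR43 went from 3770, 2670 and 2360 to 1989, 2211 and 1406 (-0.65, SE 0.24, adjusted p = 0.193), and HEATR1 from 1213, 783 and 757 to 558, 593 and 623 (-0.63, SE 0.28, adjusted p = 0.278), both without overlap. LGALS8, which overlaps HEATR1 on the opposite strand, had an estimate of -0.55. WDR36 had the highest estimate of all factors, but its groups overlapped at 605, 564 and 364 against 657, 506 and 1059 (0.54, SE 0.34, adjusted p = 0.473), and it came to -0.0014 without both libraries numbered 3. UTP18 had 746, 656 and 949 against 1031, 712 and 1073 (0.26, SE 0.27, adjusted p = 0.697), and 0.32 without both libraries numbered 3. WDR75 had 755, 570 and 520 against 621, 499 and 779 (0.042), and UTP15 had 377, 199 and 346 against 381, 135 and 515 (0.16). All 4 positive genes thus had their highest value in siCGGBP1 replicate 3. The median of this role without the libraries numbered 3 is not given. PWP2 was not tested, with 70.3, 90.5 and 24.5 deposited reads against 16, 74.5 and 106.

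Among the other processome proteins 7 of 9 were negative, with a median of -0.11. RRP9, which binds the U3 snoRNA that docks the processome on its substrate, had 468, 440 and 498 against 240, 332 and 191 (-0.88, SE 0.36, adjusted p = 0.242). UTP20 had 762, 498 and 565 against 385, 308 and 409 (-0.73, SE 0.31, adjusted p = 0.273). These 2 did not overlap between groups, while the 7 others did. IMP3, a U3 protein with the highest mean read number here, had 1194, 1582 and 1763 against 1387, 1600 and 1279 (-0.090), and DCAF13 had 1360, 1295 and 1401 against 1322, 1126 and 1447 (-0.059). NOL6 had 758, 626 and 458 against 557, 380 and 170 (-0.74, SE 0.41, adjusted p = 0.406). RCL1 had 147, 221 and 507 against 133, 216 and 584 (0.096, SE 0.59), so that the libraries numbered 3 exceeded the others in both groups.

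Late pre-40S factors were all negative (4 of 4, median -0.18), yet 0 reached an unadjusted p under 0.05 and all overlapped. LTV1, which leaves the small subunit late in its maturation, had 2023, 1170 and 1015 against 1090, 900 and 837 (-0.57, SE 0.28, adjusted p = 0.342). Of the 3 enzymes that modify ribosomal RNA, NOP2, a cytosine methyltransferase of 28S RNA, was the one factor with all siCGGBP1 libraries higher, at 673, 818 and 735 against 902, 1061 and 1203. It did not pass the test (0.51, SE 0.25, adjusted p = 0.328). NAT10, which acetylates cytidine, had 1695, 1628 and 1683 against 1578, 1510 and 1190, narrowly apart (-0.23, SE 0.21, adjusted p = 0.651). FTSJ3, a ribose methyltransferase, had 2376, 2421 and 2020 against 1831, 2275 and 2071, with overlap (-0.14, SE 0.20). PPAN, a pre-60S factor, was not tested, at 53.5, 212 and 91.5 deposited reads against 41, 68.5 and 81.

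The presence of snoRNA genes inside the factors was set beside these values as a description, and a link was not tested. Annotated snoRNA genes, 27 in all, lie inside 8 of the 51 genes (15.7%, against 2.12% of all tested genes), namely NOP56, NCL, DKC1, WDR43, GNL3, NOP58, TSR1 and PPAN. Such host genes release snoRNAs from their introns, while the reads here come from the 3′ end of the spliced host transcript. Of these hosts 7 were tested, 7 of 7 had a negative log2 fold change and 5 an unadjusted p under 0.05 (8.32% of all tested genes), with a median of -0.58 against -0.22 for the 42 other factors. The 208 tested hosts outside the set had a median of 0.060, and 20 of them (9.62%) were lower at an unadjusted p under 0.05.

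Promoter motifs were set beside the fold changes as a description. The 6 factors with a CGG or CCG tract of 3 or more units had a median log2 fold change of 0.18, 4 of them positive (NOP2, UBTF, UTP18 and RCL1), against -0.35 for the 34 tested factors with a window but no such tract, of which 28 were negative. The order did not follow tract length step by step, since the 16 factors with 2 units had a median of -0.60 and the 18 with none -0.23. RCL1 changed sign under several alternatives, and none of the 4 passed the test. Across all tested genes the same split gave medians of 0.063 for 1168 genes with 3 or more units and -0.012 for 6762 without. For the E-box the medians were -0.31 for the 21 factors with it and -0.16 for the 19 without, against -0.058 and 0.0057 over all tested genes.

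**Figure D4:**
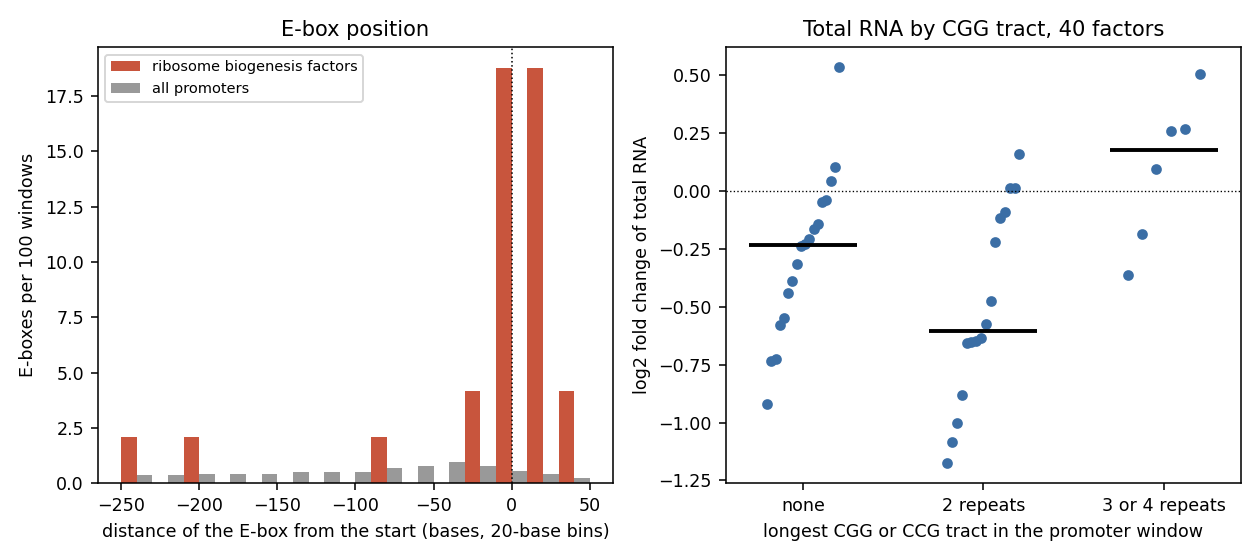
Left, the number of E-boxes CACGTG per 100 promoter windows in 20-base bins by distance from the transcription start, for the ribosome biogenesis factors (48 windows) and for all 35116 windows. Right, the log2 fold change of total RNA of 40 factors by the longest CGG or CCG tract in the window, with black lines at the medians of -0.23, -0.60 and 0.18; E-boxes gather at the start, and the 6 factors with 3 or 4 repeats lie between -0.36 and 0.51.

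Other genes of the pathway were counted from lists chosen by function. Of 115 genes, 111 were tested, 76 were negative and 35 positive, with a median of -0.20. At an adjusted p under 0.05, 2 were lower and 0 higher (1.21% and 0.572% of all tested genes), and at an unadjusted p under 0.05, 16 were lower and 3 higher (8.32% and 8.11%). Both called genes belong to the other pre-60S factors, 22 of 35 of which were negative. NSA2 had 9285, 5059 and 5517 reads against 2929, 1522 and 1980 (-1.63, SE 0.28, adjusted p = 0.0138), and NOL8 had 1479, 819 and 1370 against 496, 354 and 446 (-1.50, SE 0.30, adjusted p = 0.0234). The siCGGBP1 libraries lay far below in both.

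The remaining SSU and pre-40S factors were negative in 29 of 34, with a median of -0.30. UTP23 (-1.01, adjusted p = 0.130) and LYAR (-0.87, adjusted p = 0.161) had the lowest p there. The RNA exosome, the 3′ to 5′ nuclease that trims ribosomal precursors, was negative in 13 of 14, with a median of -0.43 and the lowest p in EXOSC9 (-0.76, adjusted p = 0.0939) and EXOSC3 (-0.75, adjusted p = 0.221). RNA polymerase I genes were split, 7 of 13 negative with a median of -0.12, and had POLR1G (-0.71, adjusted p = 0.146) and POLR1E (-0.57, adjusted p = 0.249) at the lowest p. The H/ACA list was split as well, 4 of 7 with a median of -0.014, with GAR1 at 0.40 (adjusted p = 0.505) and NAF1 at 0.83 (adjusted p = 0.544). The MYC network list holds MYC and also repressors that compete with MYC for its partner MAX, so a shared sign has no single meaning. Of 8 tested genes 7 were positive, with a median of 0.13. The lowest p values were in MXD4 (1.50, adjusted p = 0.0797) and MNT (1.19, adjusted p = 0.103), which both code for such repressors. MYC itself had 666, 702 and 578 reads against 353, 492 and 1272, with overlap (0.12, adjusted p = 0.923). Whether MYC had a part in the values of the factors was not tested.

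Proliferation markers had estimates of the same sign as most of the factors. All 14 had a negative log2 fold change, with a median of -0.54, and their summed level was 5666 to 6560 CPM in siControl and 3916 to 4542 CPM in siCGGBP1. MCM3 and MCM5, subunits of the replicative helicase, were called lower (-0.87, adjusted p = 0.0492, and -1.46, adjusted p = 0.0346). Whether the difference in proliferation markers had a part in that of the biogenesis factors was not tested.

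In new RNA, obtained for each gene as its reads multiplied by the deposited ratio of new to total RNA, 0 factors passed an adjusted p under 0.05 by edgeR or DESeq2 (background 0.0197% lower and 0.0296% higher by edgeR, and 0.187% and 0.109% by DESeq2). At an unadjusted p under 0.05 edgeR had 3 lower (NAT10, MAK16 and RRS1; 1.90%) and 0 higher (1.24%), and DESeq2 had MAK16 lower (2.85%). The groups did not overlap for 4, all lower (WDR43, BYSL, MAK16 and RRS1; 4.42%), and for 0 higher (2.9%). Of the 49, 32 were negative (50.7% of tested genes) and 15 positive (44.9%), and the median was -0.70 against -0.033. The median ran from -0.21 without siControl replicate 2 to -1.23 without siCGGBP1 replicate 1, and it was -1.27 with the replicate block. Of the same 49, 39 had 0 new reads in at least 1 library and BOP1 and MYBBP1A in all 6. With factors absent from 1 group set to their bound and the 2 empty ones left out, the median was -0.72. Without both libraries numbered 3, 34 were negative with a median of -0.64, and 0 were called (0.069% lower and 0.0296% higher in the background). At an unadjusted p under 0.05, 7 were then lower (TCOF1, NOLC1, DKC1, NAT10, WDR43, MAK16 and EBNA1BP2; 2.76%) and 1 higher (UTP4; 1.51%).

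MAK16 was the factor with the lowest p. Its new reads numbered 125, 180 and 796 under siControl but 49, 0 and 0 under siCGGBP1 (log2 fold change -4.31, SE 1.09, adjusted p = 0.119). Its ratio of new to total RNA was 15.8%, 23.5% and 47.0% against 10.5%, 0% and 0%, without overlap. Even the lowest siControl library thus stood above the highest siCGGBP1 library, and its total RNA differed in the same direction. The call depended on how new RNA was counted: the adjusted p was 0.0243 with the posterior mean ratio and 0.000528 with conversion counts (0.069% of tested genes called lower). It also depended on single libraries. Without siControl replicate 3 the estimate was -3.08 (adjusted p = 1), and without both libraries numbered 3 it was -2.49 (adjusted p = 0.706). Without siCGGBP1 replicate 1, the one siCGGBP1 library with new MAK16 reads, the adjusted p was 4.33e-06, and the fitted -11.58 against a group at 0 reads is no bound. With the replicate block it was -7.90 (adjusted p = 0.0769).

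MAK16 was also among the 5 factors with the highest ratio in siControl, as the mean over 3 libraries. The others were NOL6 (30.5% ± 23.4, SD), RRS1 (24.2% ± 18.2), RRP1 (15.6% ± 13.6) and NLE1 (14.5% ± 12.4). In siCGGBP1 the means were 13.5%, 6.41%, 2.95% and 9.87%. Since the 5 were chosen for high values in siControl, lower means in siCGGBP1 can follow from the choice alone, and no test is given. RRS1 had 57, 66 and 459 new reads against 41, 26 and 0, which did not overlap (-3.01, SE 1.45, adjusted p = 0.994), and without both libraries numbered 3 the estimate was -0.82. For NOL6, RRP1 and NLE1 the new RNA estimates without them were -0.16, -1.91 and -0.42. NAT10 had new reads in 1 library only, 151 in siControl replicate 2, so that its bound of at least 16.3-fold lower, against a floor of 3 reads per library, rests on that library. The other extremes were as sparse: NOP16 had 0, 57 and 0 against 41, 19 and 373 new reads, DCAF13 had 0, 64 and 0 against 105, 22 and 60, and RCL1 had 16 in siCGGBP1 replicate 2 alone. Without both libraries numbered 3 the estimates were 0.27 for NOP16 and 1.21 for DCAF13.

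**Figure D5:**
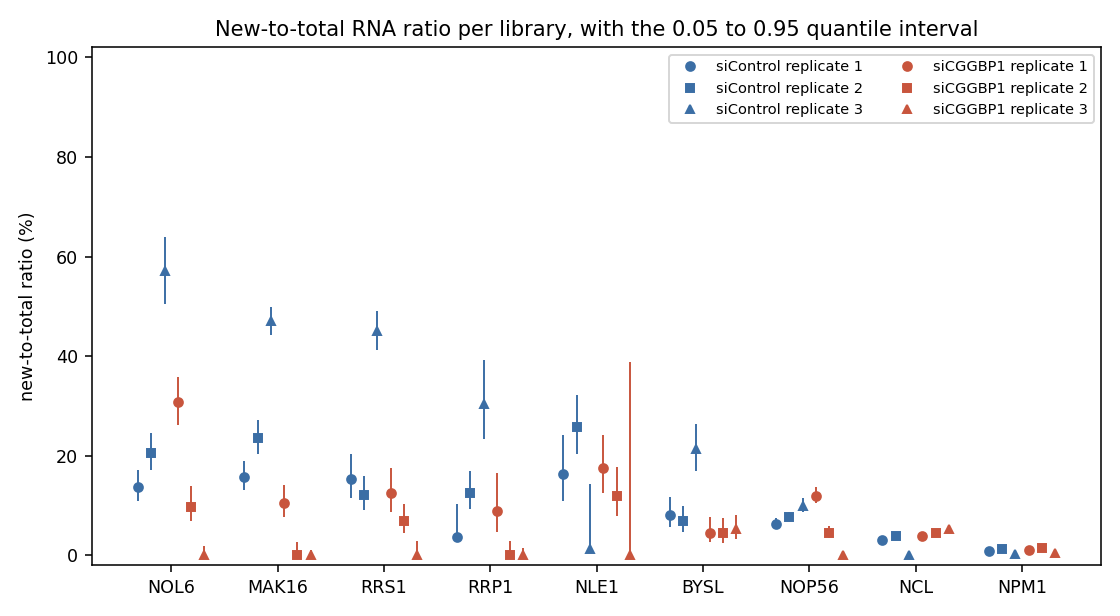
Symbols give the deposited new-to-total ratio in percent for 9 factors in each of the 6 libraries, with lines from the 0.05 to the 0.95 quantile of its posterior. MAK16 and BYSL have separate groups, and the libraries numbered 3 (triangles) lie at the extremes, at 57.1% for NOL6 and 47.0% for MAK16 in siControl and at 0% for both in siCGGBP1.

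Ratios differed widely among the factors. NPM1 had ratios of 0.95%, 1.28% and 0.24% against 0.99%, 1.51% and 0.39%, with overlapping ranges. NCL had 3.08%, 3.93% and 0% against 3.82%, 4.44% and 5.24%, and NOP56 6.37%, 7.74% and 9.99% against 12.0%, 4.57% and 0%. New RNA of NCL and NOP56 therefore gave estimates of 0.35 (SE 0.62) and -1.27 (SE 0.84), neither past a test, and of -0.25 and -0.64 without both libraries numbered 3, while their total RNA was lower by the values given above. BYSL, a late pre-40S factor, had ratios of 8.16%, 6.80% and 21.3% against 4.51%, 4.47% and 5.27%, apart from each other, beside a total RNA estimate of -0.039 (SE 0.28). Its new RNA estimate without both libraries numbered 3 was -0.79. It was 1 of 2 factors, with MAK16, whose ratios did not overlap, both lower. That is 4.08% of the 49 tested factors against 4.22% of all tested genes, so such a separation was about as frequent in both.

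Over all factors the median ratio was 3.68%, 6.80% and 1.24% in siControl and 4.89%, 2.91% and 0% in siCGGBP1, with overlap between the groups (mean 3.91% ± 2.79 against 2.60% ± 2.46, SD, n = 3). Ratios of 0 were found for 10, 5 and 22 of the 51 factors in siControl (19.6%, 9.80% and 43.1%). The siCGGBP1 libraries had 13, 11 and 33 such factors (25.5%, 21.6% and 64.7%). Among all tested genes the shares at 0 were 23.2%, 22.5% and 56.9% against 31.9%, 29.6% and 58.5%. Median ratios over those genes came to 3.82%, 4.74% and 0% against 3.37%, 2.78% and 0%. In both sets each siCGGBP1 library had a larger share at 0 than the same-numbered siControl library. A difference between the sets was not tested. T-to-C conversions per 100 covered T over the 51 genes were 0.210, 0.220 and 0.182 in siControl and 0.225, 0.189 and 0.136 in siCGGBP1, against a background of 0.0439 in the library without 4sU. Labelling was thus above the background in every library and lowest in siCGGBP1 replicate 3, whose rate over all genes was 0.241.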

How the data were processed

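The 6 libraries at 75 µM 4sU were compared, 3 per group. Per the labels and the study's methods, the authors removed ribosomal reads with Bowtie2 2.3.0, mapped 3′ end reads to GRCh38 with STAR 2.5.3a and quantified them with GRAND-SLAM. The deposited table holds expected counts (fractional where reads were shared, as for 46 of the 51 genes), the new-to-total ratio as a fraction with its quantiles and the 2 deposited shape parameters of its posterior (scores, not used here), and counts of conversions and of covered T. The deposited counts carry no molecular identifiers, so intervals cover counting error only, and no use of strand in counting is stated. Of the 51 genes, 24 overlap another coding gene, 20 of them on the opposite strand. Estimates are given above for only some of these neighbours. The spike-in was not used here.

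Counts were rounded and fitted in edgeR 4.0.16 (quasi-likelihood, TMM) over the 10138 genes that reached 100 reads in 3 or more libraries. Normalised reads are counts divided by the TMM-scaled library size relative to its mean. New reads are counts times the ratio, scaled by total reads, with a missing ratio set to 0. DESeq2 1.42.0 and limma 3.58.1 were alternatives. Simulated data were used for edgeR in total and new RNA, DESeq2 in total RNA and limma (1 added) in new RNA. The other alternatives were not run on simulated data. Same-numbered libraries deviated together weakly in total RNA (correlations 0.120, 0.212 and 0.103), with the other pairs between -0.119 and -0.0396. In new RNA they did so far more weakly (0.0381, 0.0119 and 0.0327), with the other pairs between -0.0349 and 0.00514. The labels do not state a pairing. The main fit used group only, with the replicate block beside it as an alternative. Gene and snoRNA positions are from GENCODE on GRCh38. The tract sequence of 1 gene is not reported here. The genes and lists were chosen with earlier results of these data known. Values in every library are given for factors called, for those with the lowest p in each direction, for the most abundant of each role and for the 5 highest ratios. Others, with or without overlap, and MYC were added after their values were seen.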

Additional observations from a re-analysis of the deposited data

Results flagged for a closer look

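The siControl library with 200 µM 4sU took part in no comparison, and a signal appeared in it: 0.254 T-to-C conversions per 100 covered T over the 51 factors, above the 0.0439 of the library without 4sU. It is a single library, and the deposited ratio was 0 for 27 of the 51 factors in it.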

How the results depend on the processing

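The number of factors called lower in total RNA was 1 and became 5 with DESeq2, 2 without a filter on low counts, 2 with the replicate block, 2 without both libraries numbered 3 (chosen after seeing the data) and 0 to 0 on leaving out 1 library. With an absolute log2 fold change above 1 it was 1 (MAK16) with DESeq2 and 1 without the filter. At an unadjusted p under 0.05, 14 were lower, 20 with the replicate block, 20 without the filter, 16 without both libraries numbered 3 and 7 to 13 on leaving out 1 library. Where no share over all tested genes was given above for a fit and threshold, its count has no background here. The median was -0.43 without both libraries numbered 3 and -0.39 to -0.24 on leaving out 1, and 38 to 44 factors had a negative estimate over 12 alternatives, not always the same ones. The replicate block, which pairs same-numbered libraries, changed the call of NCL and no other factor.

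Factors called in new RNA numbered 1 with the posterior mean ratio, 1 with conversion counts and 0 to 1 on leaving out 1 library. Those lower at an unadjusted p under 0.05 numbered 1 with DESeq2, 5 with the posterior mean, 1 with conversion counts, 1 with limma and 1 added, 7 without both libraries numbered 3, and 2 to 4 on leaving out 1. Counts from the posterior mean, from limma, from conversion counts at this threshold and from leaving out 1 library likewise have no background here. The difference in median ratio ran from -2.64 to 0.14 percentage points. DESeq2 called 6 pathway genes in place of 2, and called 3.45% of all tested genes lower and 2.55% higher.

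Single factors were followed through the alternatives only if they met the rules for values in every library. Among those, signs turned, all without a call, in WDR36 (-0.0014 without both libraries numbered 3), RCL1 (-0.064 there, -0.73 to 0.76 on leaving out 1), IMP3 (0.11 there, -0.24 to 0.035), DCAF13 (-0.14 to 0.025), NPM1 (-0.16 to 0.060), RRP1 (-0.37 to 0.080) and NLE1 (-0.0035 without the filter, -0.43 with the replicate block, -0.41 to 0.56 on leaving out 1). Without both libraries numbered 3, 44 factors were negative in total RNA against 39 in the main fit. Factors that were not followed singly therefore turned as well. The causes were not tested. In new RNA, 39 of 49 factors had 0 reads in at least 1 library.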
